A study of Mus musculus with 20 samples.

Results

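The response of immune cells of mouse brown adipose tissue to continuous stimulation of the beta3-adrenergic receptor was examined in 4 of the 20 single-cell RNA-seq libraries of the series. These were the 2 lineage marker positive (Lin+) libraries from mice treated with CL316,243 (CL) and the 2 Lin+ libraries from room temperature controls (RT). All mice of these 4 libraries were male C57BL/6J animals aged 8 to 14 weeks, kept at 24 °C. CL mice carried a subcutaneous osmotic pump that released the ADRB3 agonist CL316,243 at 0.75 nmol per hour for 4 days, and the labels name no pump or vehicle for RT mice. For every library the interscapular brown adipose tissue (iBAT) of 3 to 4 mice was pooled and digested, and stromal vascular cells that bound lineage antibodies (CD5, CD11b, CD45R, Gr-1, 7-4 or Ter-119) were collected on a magnetic column. A library is therefore a pool of animals, and 2 libraries per treatment are the only replicates. The gene tests also drew on 2 Lin+ libraries from male C57BL/6J mice kept at 6 °C for 4 days. These entered the scaling, the filter on low counts and the estimate of the spread, but no contrast. After filters on mitochondrial reads, total counts and detected genes, 23253 cells remained in the 4 libraries, of 126274 in the whole series. Barcodes with a summed count of at least 5 for the stromal genes Pdgfra, Col1a1 and Dcn were set aside (1023), which left 22230 cells. Of these, 9080 passed a myeloid gate (a summed count of at least 3 for Csf1r, C1qa, C1qb and H2-Ab1, with a sum under 1 for Cd79a and Cd3e) and 5681 passed a lymphocyte gate (B or T cell receptor genes, a sum under 1 for Csf1r, C1qa and C1qb).

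Brown adipocytes oxidize fatty acids to produce heat, and norepinephrine released by sympathetic nerves starts this program and the lipolysis that feeds it through ADRB3, which CL316,243 stimulates selectively. The stromal vascular fraction of the tissue holds resident macrophages, dendritic cells, monocytes, lymphocytes and neutrophils. Macrophages that take up lipid or the remains of dying adipocytes turn on lysosomal and lipid handling genes such as Gpnmb, Trem2 and Ctsd, and are known as lipid-associated macrophages.

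The libraries were not equal in makeup. After the filters RT replicates 1 and 2 held 4629 and 5047 cells, and CL replicates 1 and 2 held 6895 and 6682. The mitochondrial limit removed 12.3% and 4.66% of the deposited cells in RT, 22.8% in CL replicate 1 and 6.89% in CL replicate 2. Over all its lymphocytes CL replicate 1 had a median of 901 UMIs, against 1562 to 1768 in the other libraries. Barcodes past this stromal gate made up 0.540% and 0.693% of the RT cells, 0.290% of CL replicate 1 and 14.1% of CL replicate 2. The 943 such barcodes of CL replicate 2 had a median of 603 UMIs, against 3602 to 4617 in the other 3 libraries, and 2.55% of them held a Pdgfra UMI, against 25% to 64%. Whether they were stromal cells or droplets that held free stromal RNA was not tested, so the 14.1% is a share of barcodes and not of carried-over cells. A further 90 cells of CL replicate 2 had a stromal sum of 3 to 5, against 0 to 2 in the others. Even after this exclusion the collagen gene Col3a1 stood at 94.8 CPM (counts scaled to the same total in every library) in the sum over all kept cells of CL replicate 2, against 7.72 to 10.6 in the other 3. CL replicate 2 was also the highest in hemoglobin and neutrophil RNA, with Hbb-bs at 67106 CPM against 14269 to 29501 and S100a8 at 5909 against 901 to 2431. The 10 brown adipocyte markers summed to 1853 and 394 CPM in RT and 2469 and 590 in CL. The treatments overlapped, but CL was higher for both replicate numbers. Of the 10 markers 8 lay above RT in both CL libraries and 0 below, against 28.5% and 21.9% over all genes. Their median log2 fold change was 3.39 (1.34 without CL replicate 1, 4.20 without CL replicate 2). Of these Ucp1 stood at 2.32 and 1.14 in RT and 49.1 and 8.92 in CL. Ptprc (CD45), the marker of all leukocytes, was present in every library at 528 and 497 CPM in RT and 288 and 497 in CL. Pairs of the 4 libraries shared at most 1.02% of their cell barcodes.

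The first question was which immune cells the 2 treatments held. Each cell was thinned to 1000 UMIs (shallower cells, 433 to 1490 per library, were left out), and a cell was counted when its summed count for a few marker genes reached a minimum. The 2 CL libraries did not resemble each other in their main classes. Cells past the myeloid gate made up 32.9% and 30.1% of the RT libraries, 65.7% of CL replicate 1 and 29.8% of CL replicate 2. Cells past the B lymphocyte gate (Cd79a, Cd79b, Ms4a1) made up 24.7% and 27.4% in RT, 2.27% in CL replicate 1 and 27.0% in CL replicate 2. For both classes CL replicate 2 lay at or near the RT values and CL replicate 1 stood alone. The difference in means was 16.2 percentage points for myeloid cells (exact permutation p = 1) and −11.4 for B cells (exact permutation p = 0.667, two-sided as for all shares), and without CL replicate 1 it was −1.75 and 0.984 points. The cut at 1000 UMIs left out 286 of the 491 lymphocytes of CL replicate 1, against 54 to 94 lymphocytes in each other library. Of the 4057 myeloid cells of CL replicate 1 it left out 285. Without thinning the differences were 12.4 points for myeloid cells and −9.28 for B cells, and thinned to 500 UMIs they were 9.46 and −5.44. With 2 libraries against 2 no exact permutation test can go below p = 0.33.

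Cells past the T lymphocyte gate (Cd3e, Cd3d, Cd3g) numbered 7.94% and 12.4% in RT against 2.14% and 7.75% in CL, so that both CL libraries lay below both RT libraries, by 5.24 points on average (exact permutation p = 0.33). The difference was −2.43 points without CL replicate 1, and without thinning the shares overlapped, with 9.64% in RT replicate 1 and 10.4% in CL replicate 2 (exact permutation p = 0.667). Between libraries of the same number CL was lower both times there too, at 2.23% against 9.64% and 10.4% against 16.1%. Neutrophils (S100a8 and S100a9) numbered 4.65% and 4.59% in RT, 2.86% in CL replicate 1 and 9.99% in CL replicate 2, on both sides of the RT values. Cells past a gate of 6 mitotic genes such as Top2a, Mki67 and Birc5 were 1.70% and 2.03% in RT, 7.52% in CL replicate 1 and 1.93% in CL replicate 2. Among myeloid cells alone the mitotic share was 3.55% and 2.83% in RT and 9.28% and 3.79% in CL, with both CL libraries above both RT libraries and only CL replicate 1 far from them. The difference was 3.35 points, 0.605 without CL replicate 1, and thinned to 500 UMIs the shares overlapped, with 1.67% in CL replicate 2 and 1.74% in RT replicate 2 (exact permutation p = 0.667).

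The lipid-associated macrophage gate (a summed count of at least 3 for Gpnmb, Trem2 and Spp1) separated the treatments. At 1000 UMIs it was passed by 9 of 1351 myeloid cells of RT replicate 1 (0.666%, exact binomial 95% interval 0.305 to 1.26) and 3 of 1380 of RT replicate 2 (0.217%, 0.0449 to 0.634). It was passed by 719 of 3536 myeloid cells of CL replicate 1 (20.3%, 19.0 to 21.7) and 79 of 1555 of CL replicate 2 (5.08%, 4.04 to 6.29). Both CL libraries lay above both RT libraries and outside their counting intervals, and CL replicate 1 held the larger share. Intervals cover counting error only, and the exact permutation p was 0.33, the smallest that 2 against 2 libraries allow. Among lymphocytes, which should lack these genes, the gate was passed by 1 of 1216 cells in RT replicate 1 and by 0 of 198 to 1613 cells in the other libraries, which allows a share of up to 1.52% in CL replicate 1 and 0.186% and 0.204% in RT replicate 2 and CL replicate 2. Median UMIs before thinning, over the cells of at least 1000 UMIs, were 3435 to 5664 in myeloid cells and 1298 to 1728 in lymphocytes. Without thinning the gate was passed by 2.19% and 2.40% of RT and 41.2% and 20.1% of CL myeloid cells.

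The other myeloid gates moved less. The resident macrophage gate (Mrc1, Cd163, Folr2, Cbr2) was passed by 21.4% and 16.7% of RT and 31.6% and 13.4% of CL myeloid cells, on both sides of RT. The gate of monocyte-derived dendritic cells (Cd209a, Clec4b1, Tnip3) was passed by 13.7% and 13.5% in RT and 8.60% and 12.9% in CL, and that of type 1 conventional dendritic cells (Xcr1, Clec9a, Naaa) by 3.85% and 4.20% in RT and 3.37% and 3.47% in CL. Both CL libraries lay below both RT libraries for these dendritic cell gates, by 2.86 and 0.607 points on average (exact permutation p = 0.33 each). This order depended on the settings. Without thinning both gates overlapped between treatments (exact permutation p = 1 each), thinned to 500 UMIs the monocyte-derived gate overlapped (4.93% and 6.27% in RT, 3.52% and 5.33% in CL replicates 1 and 2, lower in CL for both numbers), and without likely doublets the type 1 gate overlapped with a difference of −0.0427 points. Without CL replicate 1 the monocyte-derived difference was −0.724 points. An inflammatory gate (Chil3, Ly6c2, Fcgr1, Clec4e) was passed by 1.11% and 2.10% of RT and 6.70% and 4.44% of CL myeloid cells. In the same order it was passed by 2.06%, 4.96%, 8.59% and 1.56% of lymphocytes, with 198 lymphocytes in CL replicate 1. At this depth its myeloid share exceeded the lymphocyte share in CL replicate 2 only. Without thinning the mean share was 21.6% of CL and 9.09% of RT myeloid cells, against 5.42% and 8.15% of lymphocytes. Thinned to 500 UMIs it was 1.51% and 0.425%, against 1.02% and 1.22%. Whether the lymphocyte share is background or expression was not tested, and the gate is not read as a population.

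**Figure D1:**
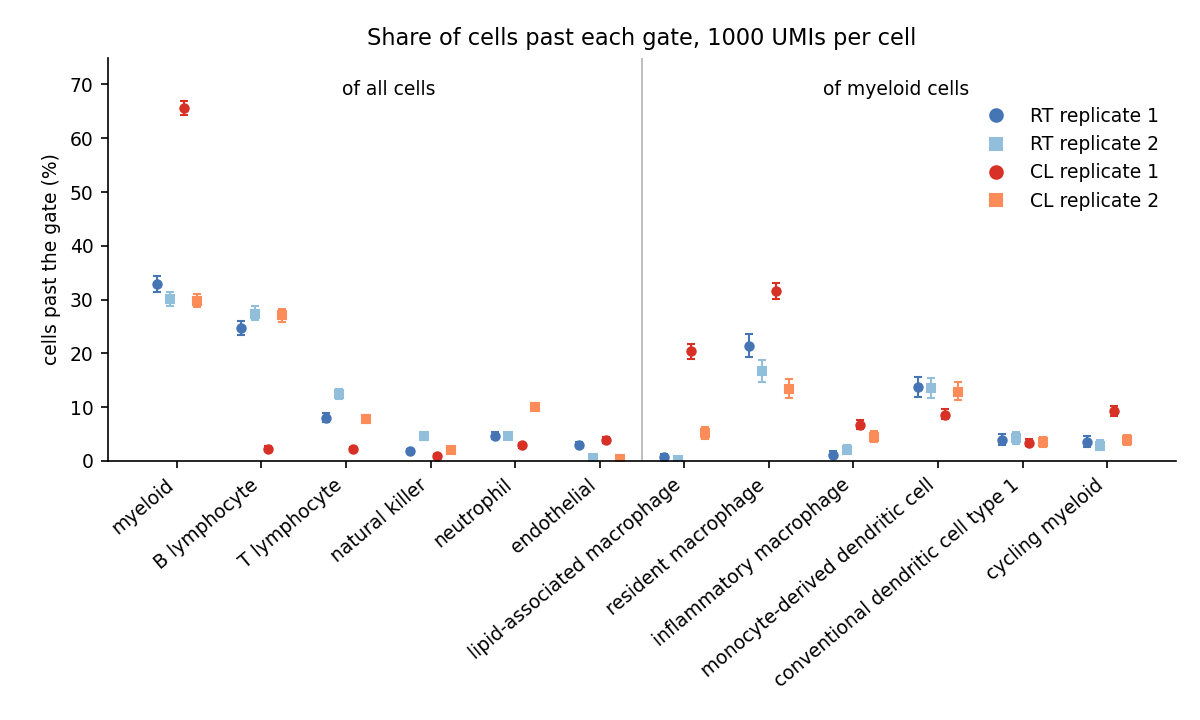
Percentage of cells past each marker gate (vertical axis, %) in the 2 RT and 2 CL Lin+ libraries, 1 point per library, with every cell thinned to 1000 UMIs; myeloid subsets are percentages of myeloid cells. CL replicate 1 stands apart for myeloid cells (65.7%) and B lymphocytes (2.27%), while for lipid-associated macrophages both CL libraries (20.3% and 5.08%) lie above both RT libraries (0.666% and 0.217%).

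To ask which genes differed, counts were summed per library over all kept cells and separately over myeloid cells and lymphocytes, and tested with edgeR's quasi-likelihood test with Benjamini-Hochberg adjustment over all genes tested, at an adjusted p under 0.05. In such sums fewer cells of a type and less RNA per cell cannot be told apart. The fits held 6 libraries, since the 2 of cold-exposed mice entered the scaling, the filter and the spread but no contrast. In the sum over all cells 0 of 13708 genes passed in either direction (0%, smallest adjusted p = 0.126), while 2534 had an unadjusted p under 0.05 (1751 higher and 783 lower in CL) and DESeq2 called 620. With the replicate number as a block edgeR called 20, without CL replicate 1 it called 43 and without CL replicate 2 it called 3085. In 28.5% of genes both CL libraries lay above both RT libraries, and in 21.9% below.

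None of the genes named in this sum passed the threshold, and their values are a description. Plin2, the coat protein of lipid droplets in non-adipose cells, stood at 87.8 and 111 CPM in RT and 638 and 393 in CL (log2 fold change 2.38). Trem2, the lipid-sensing receptor of macrophages, stood at 40.8 and 41.3 in RT and 521 and 205 in CL (3.14). The interferon-induced genes Irf7 (42.7 and 56.1 in RT, 159 and 133 in CL, log2 fold change 1.56) and Rsad2 (27.2 and 29.6 in RT, 85.2 and 69.9 in CL, 1.45) were also above RT in both CL libraries. Cxcl9, a chemokine that interferon gamma induces to attract T cells, was below it in both, at 72.9 and 74.6 in RT against 15.9 and 15 in CL (−2.25). Ccl17, a dendritic cell chemokine, lay on the same side, at 99.0 and 54.3 against 3.12 and 8.49 (−3.74). In the same order Ahnak2 gave a log2 fold change of 3.73, Igfbp6 3.04, Angptl4 2.56, Ecm1 2.22, Hist1h2bc 1.83 and Hp, haptoglobin, 1.15, and on the lower side Dnase1l3 gave −3.22, Mgp −2.09 and Serpinb9 −1.08.

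Restricting the sum to myeloid cells lowered the spread between replicates (common dispersion 0.0352 against 0.0628 over all cells), and 40 of 12470 genes passed, 30 higher in CL (0.241% of those tested) and 10 lower (0.0802%). Both CL libraries lay above both RT libraries in 26.6% of genes and below in 25.3%, and the median log2 fold change over all genes was 0.00 in size. Counts of list members above and below RT in myeloid cells are to be read against these shares. The lists were chosen with earlier results of these data known, so their counts and medians are descriptions and no test. The genes that rose included members of the lipid-associated macrophage and interferon response lists. Those that fell included enzymes of sterol synthesis, chemokines and secreted proteins of dendritic cells and resident macrophages. With the replicate number as a block 170 genes passed (122 higher, 48 lower). The calls depended on which libraries were fitted, and all were lost without RT replicate 1 and without RT replicate 2. Such a fit has 1 library in a group and fewer libraries for the spread. The loss therefore cannot show which values the calls rest on. On the RT and CL libraries alone 3 genes passed.

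Among the lipid-associated genes, Gpnmb, a transmembrane glycoprotein of lysosome-rich macrophages, stood at 19.0 and 6.98 CPM in RT and 345 and 170 in CL, a log2 fold change of 4.32 (SE 0.52, edgeR quasi-likelihood adjusted p = 0.0376). Trem2 stood at 68.3 and 79.5 in RT and 624 and 346 in CL (2.71, SE 0.30, adjusted p = 0.0337). Syngr1, a vesicle membrane protein, stood at 4.12 and 3.18 in RT and 111 and 42.6 in CL (4.41, SE 0.50, adjusted p = 0.0341). For these 3 genes the lower CL library, replicate 2, was well above the higher RT library. Ctsd, the lysosomal protease cathepsin D, stood at 263 and 250 in RT and 2912 and 1380 in CL (3.06, SE 0.37, adjusted p = 0.0376). Plin2 rose from 124 and 179 to 721 and 617 (2.15, SE 0.24, adjusted p = 0.0337), the 2 CL libraries lying close together.

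Of the 20 listed genes of lipid-associated macrophages all were tested. The 5 just named rose, 17 lay above RT in both CL libraries, 1 (Itgax) lay below, and the median log2 fold change was 1.85, against 0.00 over all genes. With the replicate block 11 of the 20 passed. In lymphocytes 11 of the 20 lay above RT in both CL libraries (16.3% over all genes there) and 1 below, with a median of 0.90, none passing, and a summed level of 800 and 831 CPM in RT and 1040 and 1287 in CL, against 10985 and 14009 in RT and 34287 and 26008 in CL in myeloid cells. The matricellular protein osteopontin (Spp1) passed with the replicate block only (adjusted p = 0.0272), at 32.4 and 29.6 CPM in RT and 1191 and 241 in CL (log2 fold change 4.53, adjusted p = 0.0584 without the block). The cathepsins Ctsl (142 and 121 in RT, 1477 and 498 in CL) and Ctsb (1269 and 1457 in RT, 5160 and 3544 in CL) likewise passed with the block (adjusted p = 0.0220 and 0.0499) and not without it. Apoe, the most abundant member and a carrier of cholesterol, stood at 5961 and 8821 in RT and 12163 and 12830 in CL. The tetraspanin Cd9 and the fatty acid transporter Cd36 overlapped between treatments. When cells past the lipid-associated macrophage gate were left out, an alternative chosen after seeing the data, 18 genes were called in the myeloid sum and the list's median was 1.01. Since the gate uses Gpnmb, Trem2 and Spp1, lower values of these 3 follow from the selection. Of the other named genes Syngr1 (log2 fold change 2.94), Ccl8 (3.25), Angptl4 (2.50), Slc27a1 (1.73), Fdps (−1.78), Sqle (−1.32) and Ccl12 (−1.16) kept their sign but not their call, and Ctsd was called (2.10, adjusted p = 0.0488).

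Lysosomal genes outside that list lay on the same side. Of 20 tested, 19 were higher in both CL libraries than in both RT libraries, none was lower in both, and the median log2 fold change was 0.65 (0.35 without cells past the lipid-associated macrophage gate), but 0 passed the threshold (2 with the replicate block, Gla and Lipa). Grn, the lysosomal protein progranulin, stood at 353 and 450 CPM in RT and 1229 and 865 in CL (adjusted p = 0.0718). Lipa, the acid lipase that frees cholesterol and fatty acids from lipoprotein lipids, stood at 105 and 112 in RT and 338 and 216 in CL (adjusted p = 0.0718). Psap, the precursor of the saposins, was the most abundant, at 2995 and 3002 in RT and 4294 and 4252 in CL.

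**Figure D2:**
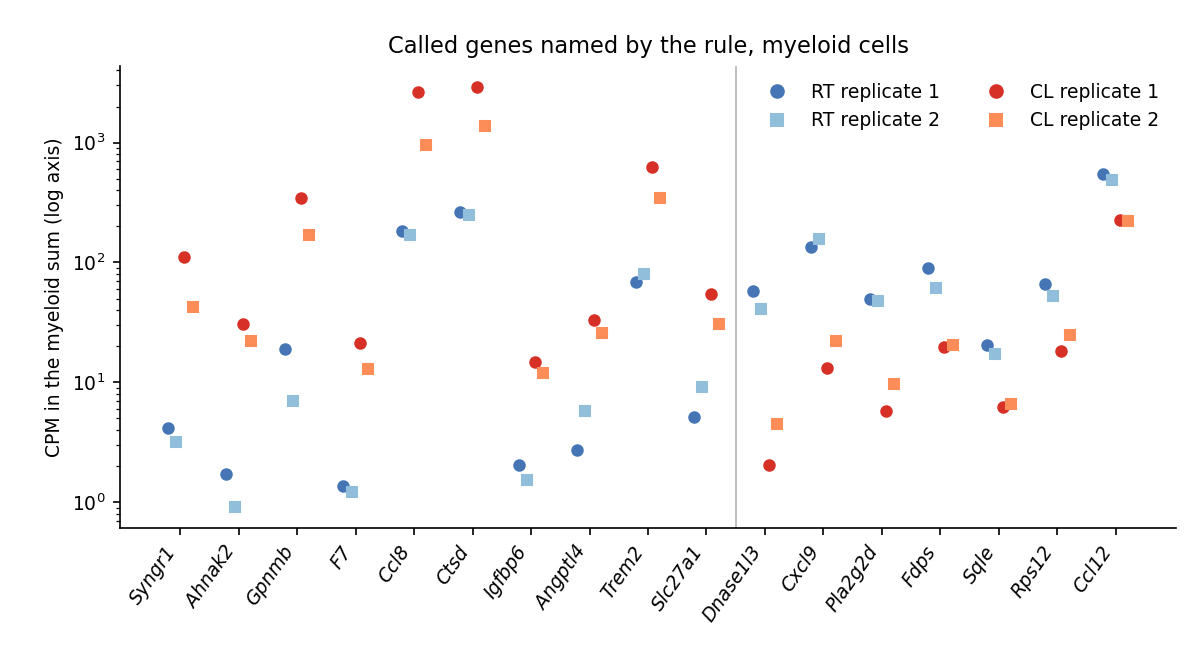
Summed level in myeloid cells (vertical axis, CPM on a log axis) of the genes named by the rule, called in the myeloid comparison and reported here, 1 point per library, 2 RT and 2 CL libraries. For each gene drawn both CL points lie on one side of both RT points, as for Ctsd (263 and 250 in RT, 2912 and 1380 in CL) and Dnase1l3 (58.2 and 41.1 in RT, 2.06 and 4.46 in CL).

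Genes of fatty acid handling moved in part. Angptl4, a secreted inhibitor of lipoprotein lipase that fatty acids induce, rose from 2.74 and 5.76 CPM in RT to 33.0 and 25.8 in CL (2.77, SE 0.31, adjusted p = 0.0337). Slc27a1, which takes up long-chain fatty acids, rose from 5.15 and 9.10 to 54.6 and 30.8 (2.58, SE 0.35, adjusted p = 0.0435). Hilpda, which inhibits lipolysis at lipid droplets, rose from 22.8 and 17.7 to 76.3 and 57.9 (1.73). Of the 17 tested genes of fatty acid oxidation and lipid handling, 2 rose (Plin2 and Angptl4), 12 lay above RT in both CL libraries and 2 below, with a median of 0.38 that was 0.17 without CL replicate 1 and 0.56 without CL replicate 2. The mitochondrial transporter Cpt1a (25.7 and 37.9 in RT, 50.7 and 50.2 in CL) and the dehydrogenase Acadl (43.7 and 50.8 in RT, 89.6 and 76.4 in CL) were among the 12 and did not pass. Of 16 glycolysis and hypoxia genes none passed, 8 lay above and 1 below, with Ldha, lactate dehydrogenase, at 237 and 254 in RT and 422 and 400 in CL.

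Genes of sterol synthesis and uptake lay mostly below RT. Of the enzymes of cholesterol synthesis 3 fell, of which 2 are given here. Fdps, which makes farnesyl pyrophosphate, stood at 89.9 and 61.4 in RT and 19.6 and 20.4 in CL (−1.92, SE 0.26, adjusted p = 0.0435). Sqle, squalene epoxidase, stood at 20.6 and 17.1 in RT and 6.23 and 6.59 in CL (−1.56, SE 0.22, adjusted p = 0.0435). In both the 2 CL libraries lay within a narrow range of each other and below both RT libraries. The calls of Fdps and Sqle were also lost without CL replicate 1.

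Of the 19 genes of sterol synthesis and uptake tested, 18 lay below RT in both CL libraries and none above, with a median log2 fold change of −1.24. With the replicate block 5 passed. Cyp51, a demethylase of the pathway, stood at 57.3 and 34.4 CPM in RT and 13.3 and 17.9 in CL (adjusted p = 0.0760, and 0.0493 with the block), Hmgcs1, an early enzyme of it, at 82.9 and 45.6 in RT and 26.4 and 27.8 in CL, and Srebf2, which encodes the transcription factor of the pathway, at 85.1 and 77.6 in RT and 28.6 and 46.0 in CL. Genes of sterol efflux, induced by liver X receptors, lay mostly above RT, with 7 of 10 above and 2 below (Srebf1 and Scd2), a median of 0.70 (0.36 without cells past the lipid-associated macrophage gate) and 0 passing (4 with the block). Nr1h3, the gene of liver X receptor alpha, stood at 8.92 and 5.46 in RT and 34.4 and 19.6 in CL, and the exporter Abcg1 at 40.7 and 26.8 in RT and 79.5 and 63.4 in CL, and both passed with the block. In lymphocytes the median of the sterol synthesis list was −0.70, with none of its genes called.

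Genes that type I interferon induces formed a further group. Irf7, the transcription factor that amplifies the interferon response, rose from 50.6 and 64.3 CPM in RT to 168 and 175 in CL (1.58, SE 0.20, adjusted p = 0.0398). Ifit2 rose from 7.72 and 10.3 to 39.8 and 25.9 (1.87, SE 0.26, adjusted p = 0.0435). Ifit3b rose from 1.89 and 2.58 to 7.67 and 9.67 (1.93, SE 0.26, adjusted p = 0.0435). The IFIT proteins bind foreign RNA, and reads of Ifit3b may be shared with its near copy Ifit3, which stood at 10.1 and 24.1 in RT and 67.9 and 56.5 in CL and passed with the replicate block only. The CL libraries agreed closely for Irf7, and for all 3 genes they lay above both RT libraries.

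Of the 24 interferon response genes tested, 3 rose, 22 lay above RT in both CL libraries and none below, with a median of 0.95. With the block 6 passed. Ifi27l2a, the most abundant member, stood at 847 and 1174 CPM in RT and 1587 and 2245 in CL, Bst2 (tetherin) at 316 and 311 in RT and 551 and 544 in CL, and the ubiquitin-like Isg15 at 114 and 117 in RT and 214 and 203 in CL, none of them past the threshold. The 2 members that did not lie above RT overlapped between treatments. The median was 0.94 without CL replicate 1, 1.15 without CL replicate 2 and 1.02 without cells past the lipid-associated macrophage gate. In lymphocytes 8 of the 24 lay above RT in both CL libraries (16.3% over all genes there) and the median was 0.30.

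Genes that depend more on interferon gamma did not follow. Cxcl9 fell from 135 and 156 CPM in RT to 13.1 and 22.1 in CL (−3.06, SE 0.36, adjusted p = 0.0376), and the guanylate binding protein Gbp5 from 8.23 and 7.28 to 2.17 and 2.34 (−1.79, SE 0.25, adjusted p = 0.0454). Of 12 tested, these 2 fell (3 with the block, Iigp1 being the third), 9 lay below RT in both CL libraries and 2 above (Ifi47 and Igtp), with a median of −0.96. Cxcl10 stood at 177 and 92.8 in RT and 59.4 and 66.7 in CL and Irf1 at 157 and 173 in RT and 56.8 and 114 in CL, and neither passed. T lymphocyte transcripts moved with this list in the myeloid sum. Of 14 tested T cell markers 13 lay below RT in both CL libraries, and their summed level was 188 and 223 CPM in RT and 47.2 and 129 in CL. Ifng itself, a product of T and natural killer cells, stood at 4.8 and 4.09 in RT and 1.39 and 0.956 in CL, and the part of these cells in the result was not tested.

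**Figure D3:**
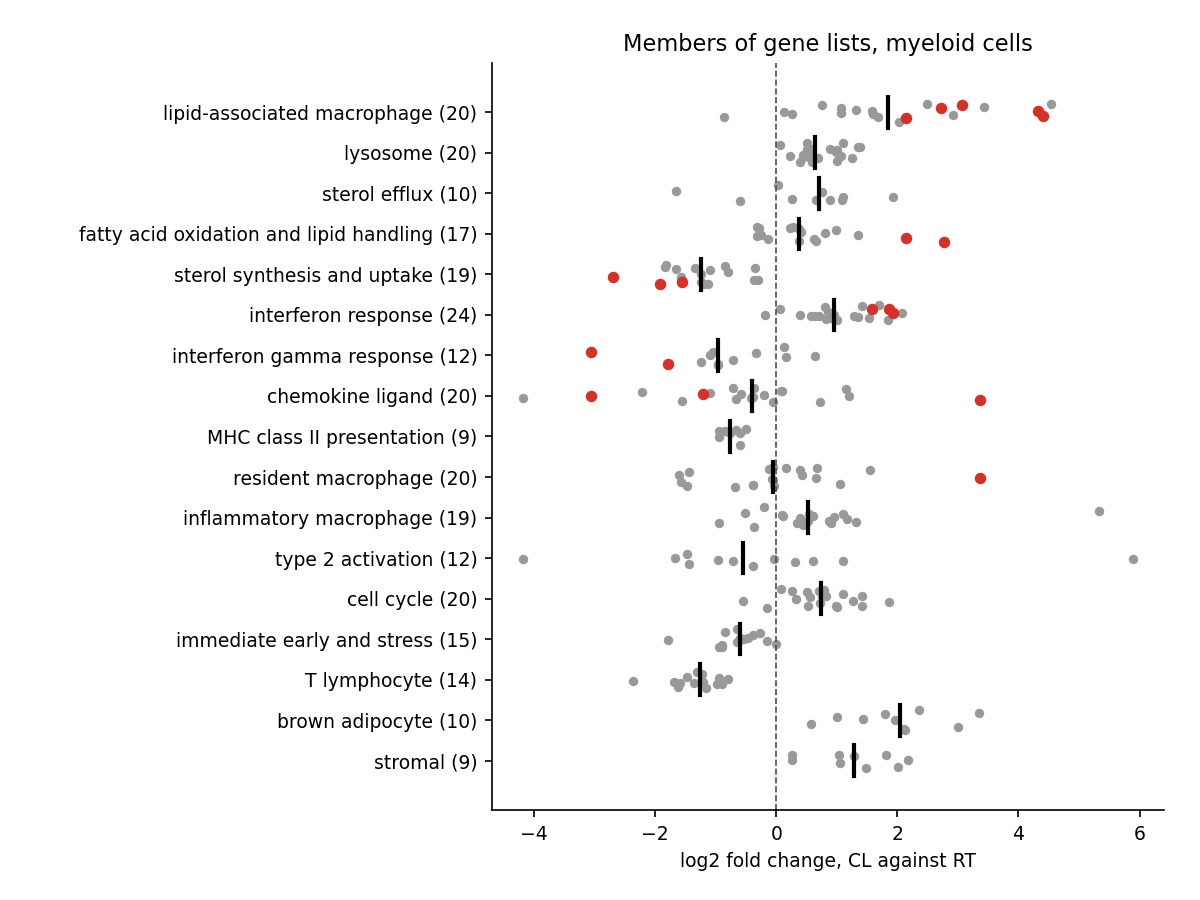
Log2 fold change of CL against RT in myeloid cells (horizontal axis) for each tested member of the gene lists named on the vertical axis, with the number tested in brackets; the dashed line is the median over all genes tested. Members of the lipid-associated macrophage list (median 1.85) and the interferon response list (0.95) lie mostly to the right, and those of the sterol synthesis list (−1.24) to the left.

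Promoter sequences were read for the groups in which members moved together, from the RefSeq promoter table for GRCm38.p6 (250 bases before to 50 after each gene's start, 32851 promoters), and searched on both strands for 1 motif per group. The interferon-stimulated response element (2 copies of GAAA with 2 bases between them) was in 3.44% of all promoters and in 10 of the 18 interferon response genes with an entry (55.6%), namely Bst2, Ddx58, Ifih1, Ifit1, Ifit3, Ifit3b, Isg15, Oas1a, Rsad2 and Stat2. The gamma-activated site TTCNNNGAA, which may overlap the first motif, was in 8.30% of all and in 3 of 10 matched interferon gamma genes (30%, Gbp5, Igtp and Irf1). The lysosomal E-box TCACGTGA was in 0.974% of all, in 2 of 14 lysosomal genes (14.3%, Ctsa and Gla) and in 1 of 16 lipid-associated genes (6.25%, Ctsd). The sterol regulatory element TCACNCCAC was in 1.24% of all and in 1 of 12 sterol genes (8.33%, Hmgcs1). Shown 5′ to 3′ on the gene's strand, with the motif in capitals, are the 3 called genes that hold the motif of their group (Ifit3b, Gbp5 and Ctsd), Rsad2 as a well-known interferon-induced gene, and Hmgcs1 as the sterol gene with a match. A match describes the letters and is no evidence of binding.
Ifit3b, response element, chr19:34607707-34608006 (+): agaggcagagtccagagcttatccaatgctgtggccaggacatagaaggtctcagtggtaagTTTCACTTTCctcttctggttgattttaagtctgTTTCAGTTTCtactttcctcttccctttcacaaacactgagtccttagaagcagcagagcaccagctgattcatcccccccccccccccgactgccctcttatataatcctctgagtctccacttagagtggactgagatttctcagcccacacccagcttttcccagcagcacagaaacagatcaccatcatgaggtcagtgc
Rsad2, response element, chr12:26456403-26456702 (-): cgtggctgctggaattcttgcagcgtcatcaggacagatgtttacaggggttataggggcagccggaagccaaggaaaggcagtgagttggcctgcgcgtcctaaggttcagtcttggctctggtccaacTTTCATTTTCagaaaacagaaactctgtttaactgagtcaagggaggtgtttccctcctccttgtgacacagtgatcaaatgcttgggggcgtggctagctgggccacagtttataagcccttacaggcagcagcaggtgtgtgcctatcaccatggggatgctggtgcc
Gbp5, gamma-activated site, chr3:142496684-142496983 (+): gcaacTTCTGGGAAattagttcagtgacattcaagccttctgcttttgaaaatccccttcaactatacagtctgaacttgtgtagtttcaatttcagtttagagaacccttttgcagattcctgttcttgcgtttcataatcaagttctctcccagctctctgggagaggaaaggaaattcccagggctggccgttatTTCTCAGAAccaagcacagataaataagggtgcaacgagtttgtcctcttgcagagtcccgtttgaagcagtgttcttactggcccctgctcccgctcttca
Ctsd, lysosomal E-box, chr7:142387778-142388077 (-): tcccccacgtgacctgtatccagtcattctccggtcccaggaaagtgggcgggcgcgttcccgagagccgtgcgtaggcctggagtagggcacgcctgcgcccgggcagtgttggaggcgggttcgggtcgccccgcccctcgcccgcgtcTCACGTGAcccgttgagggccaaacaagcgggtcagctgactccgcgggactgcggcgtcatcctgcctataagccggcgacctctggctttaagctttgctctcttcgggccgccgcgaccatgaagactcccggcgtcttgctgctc
Hmgcs1, sterol regulatory element, chr13:119690101-119690400 (+): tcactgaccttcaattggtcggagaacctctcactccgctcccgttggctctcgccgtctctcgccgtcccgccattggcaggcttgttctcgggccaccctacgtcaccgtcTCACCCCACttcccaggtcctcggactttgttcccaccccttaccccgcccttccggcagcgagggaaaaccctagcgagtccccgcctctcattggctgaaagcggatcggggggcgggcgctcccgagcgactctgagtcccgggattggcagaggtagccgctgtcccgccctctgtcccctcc

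Counted from the start site, the nearer of 2 response elements of Ifit3b began at position −154, and the single one of Rsad2, which stood at 21.3 and 30.5 CPM in RT and 66.8 and 59.2 in CL, at −120. The nearer of 2 gamma-activated sites of Gbp5, which fell, began at −52, and its promoter also held 1 response element, at −165. The E-box of Ctsd, which rose, began at −99, and the sterol element of Hmgcs1 (82.9 and 45.6 CPM in RT, 26.4 and 27.8 in CL, not called) at −137.

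Chemokines changed in both directions. Ccl8, a ligand of CCR2 and other receptors made by resident macrophages, rose from 182 and 169 CPM in RT to 2669 and 957 in CL (3.37, SE 0.46, adjusted p = 0.0435). Ccl12, a monocyte attractant, fell from 543 and 492 to 225 and 224 (−1.20, SE 0.16, adjusted p = 0.0435), and Cxcl9 fell as given above. Of the 20 tested chemokine ligands 1 rose and 2 fell, while 4 lay above RT in both CL libraries and 11 below, with a median of −0.40. The ligands of CCR4, Ccl17 (207 and 113 CPM in RT, 3.5 and 15 in CL, log2 fold change −4.19, adjusted p = 0.0679, and 0.0278 with the replicate block) and Ccl22 (104 and 60.5 in RT, 8.01 and 28.3 in CL), did not pass without the block, and Ccl22 did not with it. Ccl6 (633 and 801 in RT, 1832 and 1474 in CL) and Ccl9 (471 and 541 in RT, 1256 and 995 in CL), products of macrophages, were among the 4 above and did not pass. None of the 14 chemokine receptors passed, with Ccr2, the receptor of inflammatory monocytes, overlapping at 337 and 444 in RT and 340 and 407 in CL.

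Of the 18 tested cytokines and growth factors none passed in the fit without a block. Il10, the anti-inflammatory interleukin, stood at 6.35 and 3.03 CPM in RT and 27.4 and 16.7 in CL and passed with the replicate block (log2 fold change 2.25, adjusted p = 0.0121). Tnf stood at 228 and 179 in RT and 97.9 and 114 in CL, and Igf1 at 124 and 120 in RT and 383 and 202 in CL. Il1b overlapped, at 864 and 504 in RT and 310 and 649 in CL.

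Secreted proteins led the genes that fell. Dnase1l3, a nuclease that digests DNA of dying cells, had the largest fall among the called genes, from 58.2 and 41.1 CPM in RT to 2.06 and 4.46 in CL (−4.01, SE 0.38, adjusted p = 0.0337). Pla2g2d, a secreted phospholipase of dendritic cells and macrophages, fell from 49.4 and 47.6 to 5.73 and 9.67 (−2.69, SE 0.30, adjusted p = 0.0337). For both the higher CL library was far below the lower RT library. Rps12, a ribosomal protein gene whose reads can be shared with near-identical copies, fell from 65.9 and 52.6 to 18.3 and 24.9 (−1.46) and is uncertain for that reason, as are the pseudogenes Rpl10-ps3 (258 and 218 in RT, 68.7 and 102 in CL) and Rpl13a-ps1 (85.3 and 46.2 in RT, 16.3 and 19.2 in CL), which were not called.

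Among the remaining genes that rose were Ahnak2, a large scaffold protein (1.72 and 0.910 CPM in RT, 30.8 and 22.2 in CL, log2 fold change 4.36, SE 0.33, adjusted p = 0.0231), F7, coagulation factor VII (1.37 and 1.21 in RT, 21.4 and 13 in CL, 3.74) and Igfbp6, a binding protein of insulin-like growth factors (2.06 and 1.52 in RT, 14.8 and 12.0 in CL, 2.92). Ahnak2 had the smallest adjusted p of the comparison, and like Dnase1l3 and Cxcl9 it was also called on the RT and CL libraries alone. Spon1 (log2 fold change 3.98), Pcp4l1 (3.15), Epb41l1 (2.34), Emp1 (2.16), Slc37a2 (2.13), Ecm1 (1.98), Slfn4 (1.92), Hist1h2bc (1.91), Fam20c (1.88), Pld3 (1.63), Lgals3bp (1.51), Dtnbp1 (1.41), Tmem65 (1.39) and Gda (1.04) rose as well.

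Markers of resident macrophages did not move as a group. Of 20 tested 1 rose (Ccl8), 6 lay above RT in both CL libraries and 6 below, with a median of −0.06 that was −0.34 without CL replicate 1 and 0.23 without CL replicate 2. Mrc1, the mannose receptor, overlapped at 505 and 378 CPM in RT and 519 and 341 in CL, and so did the platelet factor Pf4 (2590 and 1901 in RT, 2585 and 1720 in CL). The folate receptor Folr2 stood at 163 and 146 in RT and 603 and 306 in CL, and the phosphatidylserine receptor Timd4 at 26.6 and 16.1 in RT and 7.28 and 7.01 in CL, neither called without the replicate block and both with it. The type 2 list was mixed, with 0 of 12 passing (2 with the replicate block, Arg1 and Ccl17), 2 above and 6 below. Arg1, arginase 1, stood at 0 and 0.303 in RT and 13.5 and 6.27 in CL (adjusted p = 0.0527, and 0.0333 with the block), whereas Retnla stood at 1628 and 1661 in RT and 157 and 1062 in CL and Mgl2 at 458 and 812 in RT and 122 and 338 in CL.

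No antigen presentation gene passed. Of the 9 tested genes of MHC class II presentation 5 lay below RT in both CL libraries and none above, with a median of −0.77, and it was −0.28 without CL replicate 1, −1.45 without CL replicate 2 and −0.32 without cells past the lipid-associated macrophage gate. Cd74, the invariant chain, stood at 24786 and 31082 CPM in RT, 8876 in CL replicate 1 and 20017 in CL replicate 2, so that most of the distance lay in CL replicate 1. MHC class I genes had a median of −0.12 (0.11 without CL replicate 1), with 1 of 12 above, 4 below and 7 overlapping. Of the 20 cell cycle genes 12 lay above RT in both CL libraries and 1 below, with a median of 0.74 that was 0.17 without CL replicate 1, and none passed. Birc5 (survivin) stood at 45.1 and 41.2 in RT and 157 and 73.4 in CL. Immediate early and stress genes, which dissociation of tissue can induce, had 0 of 15 passing and 9 below RT, with a median of −0.60 that was −0.20 without CL replicate 1.

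**Figure D4:**
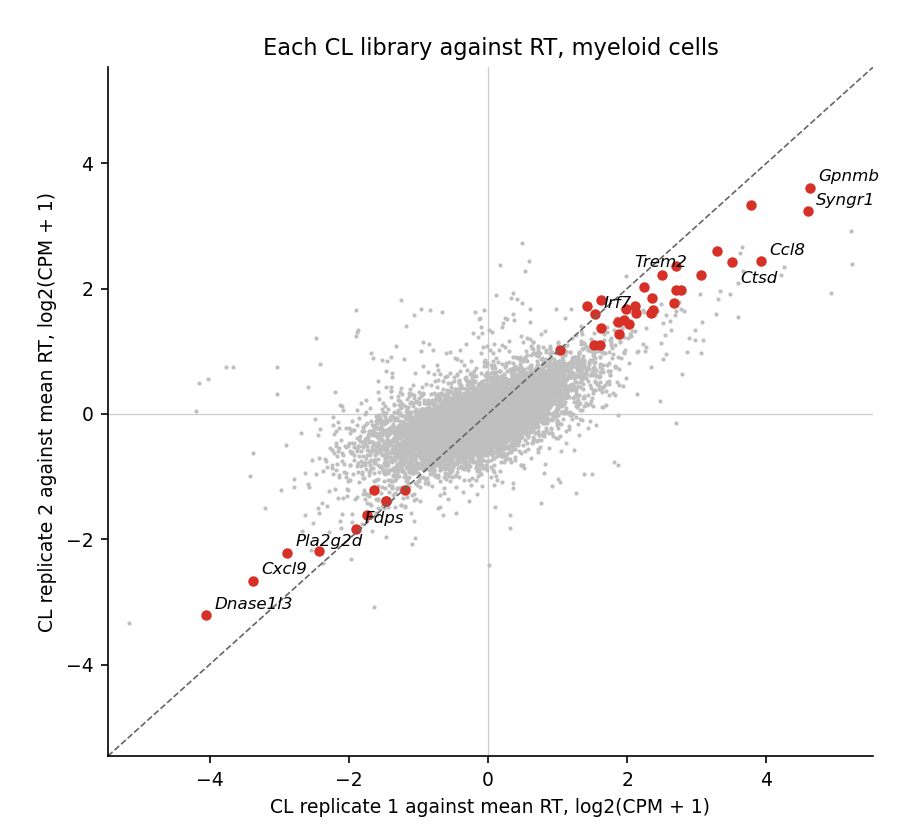
Difference of each CL library from the mean of the RT libraries in myeloid cells, CL replicate 1 (horizontal axis) against CL replicate 2 (vertical axis), both as log2(CPM + 1), 1 point per gene; both axes share the RT mean, so points follow the diagonal in part by construction. Spp1 (1191 and 241 CPM in CL replicates 1 and 2) lies farther from the diagonal than Plin2 (721 and 617), and neither is labelled.

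The receptor of CL316,243 itself was scarcely detectable. Adrb3, its gene, did not pass the filter on low counts in the myeloid or the lymphocyte sum. In the sum over all cells it had 0 UMIs in both RT libraries, 35 in CL replicate 1 and 11 in CL replicate 2, the same order of the CL libraries as for Ucp1 given above. Of the adrenergic list 5 genes were tested in myeloid cells, none passed, and 4 lay below RT in both CL libraries. Of the brown adipocyte markers none passed in the myeloid sum. All 10 were tested, 7 lay above RT in both CL libraries and none below, with a median of 2.04 (0.64 without CL replicate 1, 2.61 without CL replicate 2). Their summed level was 226 and 112 CPM in RT and 455 and 174 in CL, overlapping between treatments but higher in CL for both replicate numbers. Ucp1, the uncoupling protein of brown adipocytes, stood at 1.89 and 1.52 in RT and 25.6 and 8.61 in CL in myeloid cells, and at 1.66 and 0.745 in RT and 73.4 and 3.45 in CL in lymphocytes. Ucp1 and Car3 passed in myeloid cells with the replicate block only. Fabp4 and Car3, 2 of the 10, were used by the authors to estimate and remove free RNA, and the part of remaining adipocyte RNA in the genes above was not tested.

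To see whether the called genes differed within one kind of myeloid cell or across kinds, levels were summed within each gate, counting a cell past several gates once, in the order lipid-associated, type 1 dendritic, monocyte-derived dendritic, inflammatory and resident. The lipid-associated gate held 35 and 38 cells in RT and 1670 and 369 in CL, the resident gate 412 and 355 in RT and 799 and 222 in CL, and 560, 524, 550 and 477 cells passed no further gate. Past the lipid-associated gate 23 and 29 cells in RT and 1374 and 303 in CL also passed another myeloid gate. So did 51 of 193 and 87 of 194 type 1 dendritic cells in RT, and 92 of 286 and 100 of 208 in CL. The gates are thus not separate kinds of cell. The levels within gates are descriptions without a test, in CPM of each gate's own total without the TMM scaling factor. Ctsd stood higher in CL in each gate. In cells past the resident gate it was 344 and 330 CPM in RT and 2477 and 1186 in CL, past the type 1 dendritic gate 54.4 and 93 in RT and 257 and 256 in CL, and past the lipid-associated gate 1605 and 1623 in RT and 5046 and 3178 in CL. It was thus more abundant past the lipid-associated gate within each library, and higher in CL than in RT within each of these gates.

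Ccl8 was the most abundant past the resident gate, with 489 and 367 CPM in RT and 6917 and 2760 in CL, and stood at 35.8 and 43.8 in RT and 396 and 173 in CL past the type 1 dendritic gate. Irf7 past the resident gate was 14.3 and 18.6 in RT and 180 and 113 in CL, and past the monocyte-derived dendritic gate 33.2 and 58.0 in RT and 151 in both CL libraries. Plin2 past the resident gate was 71.4 and 113 in RT and 547 and 567 in CL. Both CL libraries lay above both RT libraries in each of these. Ccl8 was also higher in lymphocytes, at 7.60 and 5.26 CPM in RT and 91.3 and 53.5 in CL. The part of carried-over RNA and of cells past several gates in these levels was not tested.

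The genes that fell differed in where they were abundant in RT. Cxcl9 past the type 1 dendritic gate was 260 and 351 CPM in RT and 81.1 and 71.6 in CL, against 10.1 and 12.2 in RT and 2.90 and 1.06 in CL past the resident gate. Fdps past the type 1 dendritic gate was 132 and 106 in RT and 34.2 and 13.7 in CL, and past the resident gate 24.5 and 19.0 in RT and 9.37 and 8.48 in CL. Pla2g2d was most abundant past the resident gate, with 150 and 153 in RT and 19.4 and 50.03 in CL. Dnase1l3 was 84.8 and 51.8 in RT and 3.46 and 5.32 in CL past the resident gate, and 70.1 and 48.3 in RT and 4.61 and 9.38 in CL past the type 1 dendritic gate. Within each of these gates both CL libraries lay below both RT libraries.

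**Figure D5:**
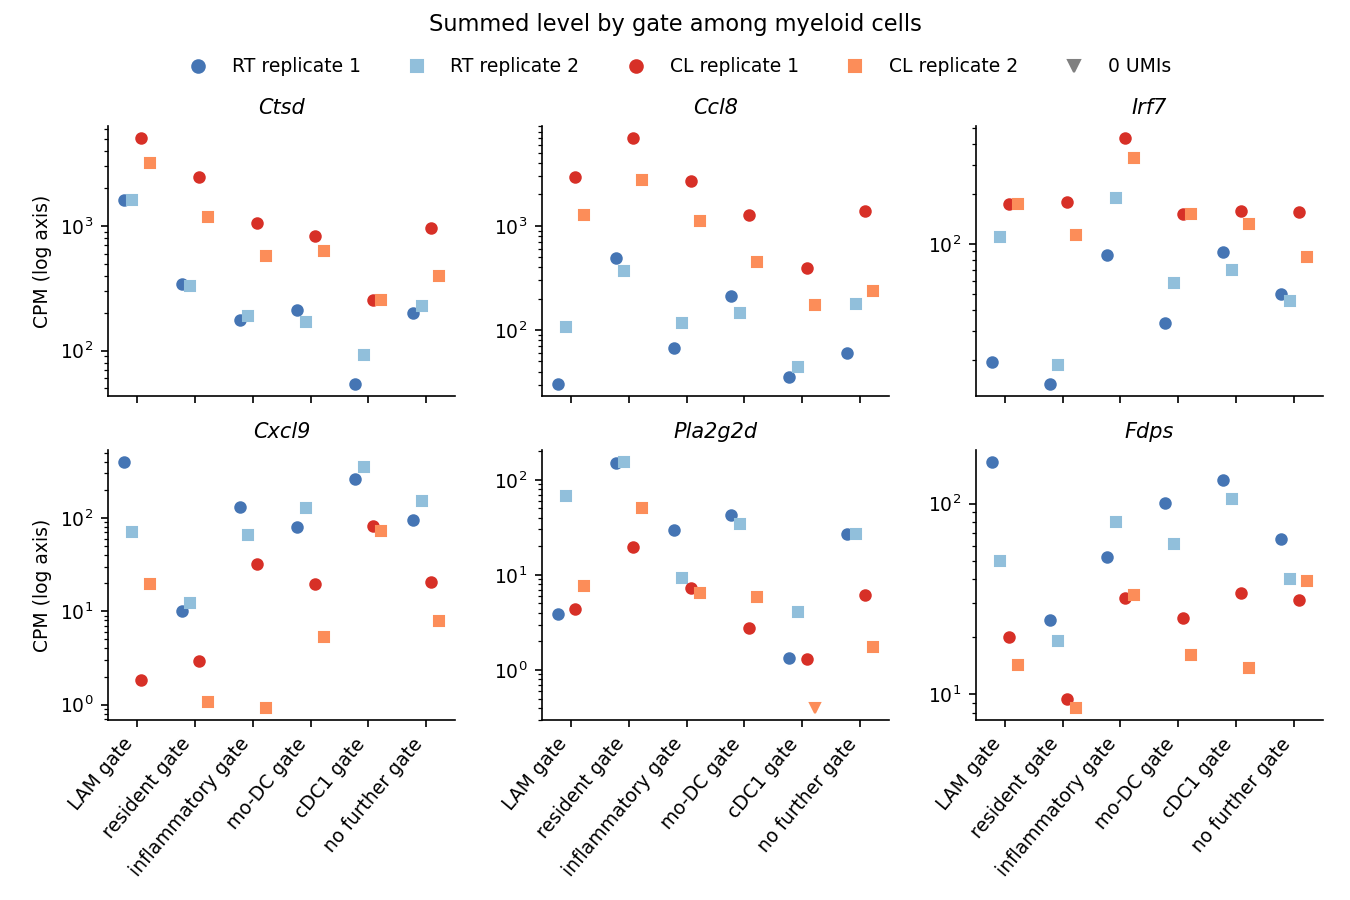
Summed level (vertical axes, CPM on a log axis) of named genes in myeloid cells past each marker gate (horizontal axis), 1 point per library, 2 RT and 2 CL libraries; a triangle marks a sum with 0 UMIs. Ctsd is above RT in both CL libraries past each gate, and Cxcl9 is below RT in both CL libraries, as past the type 1 dendritic gate (260 and 351 in RT, 81.1 and 71.6 in CL).

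The same genes were counted as the share of myeloid cells with at least 1 UMI after thinning to 1000. Ctsd was found in 18.4% and 17.7% of RT and 66.6% and 44.2% of CL myeloid cells, and in 6.50% to 10.6% of lymphocytes of the 4 libraries. Trem2 was found in 5.85% and 8.12% of RT and 36.2% and 20.5% of CL myeloid cells, with 0.124% to 7.07% of lymphocytes. Plin2 was found in 8.51% and 13% of RT and 40.1% and 34.4% of CL myeloid cells, with 0.658% to 3.05% of lymphocytes. All 3 stood above the lymphocyte share of the same library by a wide margin in CL. Dnase1l3 was found in 5.26% and 3.99% of RT and 0.255% and 0.450% of CL myeloid cells, with 0.505% and 0.204% of CL lymphocytes, so that the myeloid share of CL replicate 1 was not above that background. Fdps was found in 7.25% and 4.64% of RT and 1.73% and 1.09% of CL myeloid cells. The share with Fdps in lymphocytes was 1.81% and 2.54% in RT and 0.505% (1 of 198 cells) and 1.70% in CL. The myeloid share of CL replicate 2 was not above the lymphocyte share of that library. Whether the lymphocyte share of Fdps is background or expression was not tested.

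Lymphocytes were tested as a second population of the same libraries, with 1375 and 1978 cells in RT and 491 and 1837 in CL. Of 9821 genes 1 rose (0.0102%) and 1 fell (0.0102%), with 521 at an unadjusted p under 0.05, and with the replicate block 9 passed. Both CL libraries lay above both RT libraries in 16.3% of genes and below in 17.8%. Ccl8 rose from 7.60 and 5.26 CPM in RT to 91.3 and 53.5 in CL (3.44, SE 0.38, adjusted p = 0.0322), at a level far below the 2669 and 957 CPM of the CL myeloid sums. Klra9, a natural killer cell receptor of the Ly49 family whose reads can be shared with near-identical family members, fell from 23.7 and 43.1 to 1.5 and 2.43 (−3.89, SE 0.46, adjusted p = 0.0322), on 56 and 172 UMIs in RT and 1 and 8 in CL. Both calls were lost on the RT and CL libraries alone and without RT replicate 2, and that of Klra9 also without CL replicate 2.

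Whether the response differed between myeloid cells and lymphocytes was tested with a term for the difference, and 17 of 11913 genes passed (0.143%), 5 with a log2 change that was higher in myeloid cells and 12 with one that was lower. The 12 include Dcn and H2-Ab1, which the stromal and myeloid gates used, and Serpinf1, which was under the count filter in lymphocytes alone, and the terms of these 3 are descriptions. Lgals1, the galactose-binding lectin galectin 1, stood at 622 and 771 CPM in RT and 2145 and 1480 in CL myeloid cells, but at 539 and 669 in RT and 488 and 364 in CL lymphocytes (difference 1.87 on the log2 scale, adjusted p = 0.000532). Ctsd also differed (3.32, adjusted p = 0.0218), with 128 and 181 in RT and 80.8 and 141 in CL lymphocytes. Gzma, granzyme A of cytotoxic cells, stood at 79.4 and 346 in RT and 20.9 and 48.0 in CL in lymphocytes and at 8.06 and 34.0 in RT and 7.95 and 25.9 in CL in the myeloid sum (2.33, adjusted p = 0.00140). Pld3, a lysosomal exonuclease (1.68), and 2010111I01Rik (2.69) were the other genes with a positive term.

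Genes with a log2 change lower in myeloid cells than in lymphocytes included Cd83, Myc and 3 MHC class II genes. Cd83, an activation marker of dendritic and B cells, stood at 560 and 382 CPM in RT and 133 and 346 in CL myeloid cells and at 275 and 289 in RT and 307 and 497 in CL lymphocytes (difference −1.55, adjusted p = 0.0300). Myc stood at 20.6 and 14.1 in RT and 6.17 and 9.03 in CL myeloid cells and at 32.5 and 41.6 in RT and 56.9 and 64.7 in CL lymphocytes (−1.84, adjusted p = 0.0374). H2-Eb1 (−1.32) and H2-Aa (−1.18), chains of the MHC class II complex, and Cd74 (−1.23), the invariant chain, were also among the 12. The myeloid gate counted H2-Ab1 of the same complex, and the part of the gate in these terms was not tested. Of the myeloid cells, 96 of 1598 and 92 of 1585 in RT and 90 of 4057 and 156 of 1840 in CL also passed the B gate. The terms of the fibroblast genes Serpinf1 (−3.66) and Dcn (−2.82) are given as values only. Dcn stood highest in the lymphocyte sum of CL replicate 2 (37.1 against 2.76 to 5.98 in the other 3), the library with the most barcodes past that gate.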

How the data were processed

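Lin+ libraries of the 10x Genomics 3′ assay (v2 reagents) were analysed. The deposited values are estimated counts per gene and cell. Per the labels and the study's methods, the authors aligned and counted unique molecules with Cell Ranger 3.0.1 (mm10) and removed free RNA with SoupX, with Fabp4 and Car3 as genes that no cell should express, so that values need not be whole. Cells with under 10% mitochondrial counts, under 15000 counts and under 4000 genes were kept, as in the study. Deposited files held 5285 to 8943 cells per Lin+ library used here, and 12184136 to 20827947 counts per library remained in the sums over kept cells, 6067742 to 16161094 in myeloid and 596215 to 4136456 in lymphocyte sums. Classes are ranges of a marker sum and not cell types, and 121 to 217 myeloid cells per library had a sum of 3 to 5 while 211 to 519 cells lay just below the gate at 1 to 3.

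Sums were rounded and tested with edgeR 4.0.16 (limma 3.58.1, R 4.3.3; TMM factors, filterByExpr, glmQLFTest) on 6 libraries, the RT and CL libraries and 2 of cold-exposed mice, which entered the TMM scaling, the filter on low counts and the estimate of the spread, but no contrast. DESeq2 1.42.0 was an alternative. Fold changes are log2 of CL over RT. The SE given with a fold change is its size divided by the square root of the quasi-likelihood F statistic. The test was tested on simulated data with known changes. Cells were handled with Python 3.11.15, scanpy 1.11.5 and scipy 1.17.1, and figures with matplotlib 3.10.9. Shares were compared by exact permutation tests over libraries. Named genes were, per comparison, the 10 rising and 10 falling called genes with the largest fold change whose CL libraries both lay on one side of RT, at 10 CPM or more in the higher group, places being filled by unadjusted p, with values only, where fewer passed. Of 37 gene lists the members called and the most abundant were named. In the difference test, which had the library as a block, the 5 called genes with the largest term each way were named. The members and lists were chosen with earlier results of these data known. Some of the other called genes were named after their values were seen.

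Same-numbered libraries came from the same replicate experiment in the study's methods. Deviations from the group means correlated between RT and CL at 0.26 in all cells, 0.12 in myeloid cells and 0.069 in lymphocytes. The replicates are separate pools of mice, and counts of the 2 replicates differed by far more than sampling noise (chi-square per degree of freedom 33 in RT and 256.7 in CL), so none was a duplicate. Doublets were kept. Scrublet's own threshold called 0 to 1 cells per library, which does not show that doublets were absent, since some myeloid cells also passed the B gate. As an alternative the top 6% of its scores were left out. Promoters were matched by symbol, for 30 of the 40 called myeloid genes. Some genes that the rule or the lists name are not reported here.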

Additional observations from a re-analysis of the deposited data

Results flagged for a closer look

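Besides the comparisons above, 10 named genes stood out because the response to CL differed between myeloid cells and lymphocytes of the same libraries, each by the edgeR term for the difference. The difference in log2 change, myeloid cells minus lymphocytes, was 3.32 for Ctsd (adjusted p = 0.0218), 2.69 for 2010111I01Rik (adjusted p = 0.0185), 2.33 for Gzma (adjusted p = 0.00140), 1.87 for Lgals1 (adjusted p = 0.000532) and 1.68 for Pld3 (adjusted p = 0.0300). It was −3.66 for Serpinf1, which was under the count filter in lymphocytes, and −2.82 for Dcn, a gene of the stromal gate, and for both the term is a description. It was −1.84 for Myc (adjusted p = 0.0374), −1.55 for Cd83 (adjusted p = 0.0300) and −1.37 for Cnn3 (adjusted p = 0.0386), by the edgeR quasi-likelihood test throughout. None of these calls held in every alternative run. Each was lost without RT replicate 2. Those of Dcn, Myc, Cd83, Cnn3, Ctsd, 2010111I01Rik and Pld3 were also lost without RT replicate 1. Those of Serpinf1 and Dcn were also lost without CL replicate 2, and that of Dcn with scaling factors other than TMM. Serpinf1 stood at 48.2 and 72.2 CPM in RT and 7.84 and 26.2 in CL myeloid cells.

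Barcodes past the stromal gate, which the comparisons left out, made up 14.1% of CL replicate 2, against 0.290% to 0.693% in the other 3 libraries, and whether they were cells or droplets with free RNA was not tested.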

How the results depend on the processing

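Counts of called genes depended on the settings. In all cells, where 0 genes passed, DESeq2 called 620, no filter on low counts gave 1142 and the replicate block 20, and leaving out 1 library gave 0 to 3085. In myeloid cells (40) DESeq2 called 720, no filter gave 1810, the RT and CL libraries alone 3, the replicate block 170, a myeloid gate at 6 gave 62, and leaving out 1 library gave 0 to 2466. Without cells past the lipid-associated macrophage gate, a setting chosen after seeing the data, 18 were called. In lymphocytes (2) DESeq2 called 19, no filter gave 156, the RT and CL libraries alone 0, the replicate block 9, leaving out likely doublets 4, and leaving out 1 library 4 to 69. For the difference between the classes (17) no filter gave 402 and leaving out 1 library 0 to 414. A setting with 1 library in a group assumes that it varies like the other groups. The cause of these changes was not tested. Named genes kept their direction in all alternatives run, and the called named genes of myeloid cells lost their call without RT replicate 1 and without RT replicate 2.

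Differences in share (percentage points) ranged, when 1 library was left out, from −1.75 to 34.2 for myeloid cells, −23.8 to 0.984 for B lymphocytes, −1.76 to 5.37 for neutrophils, −1.57 to 2.03 for endothelial cells, −5.65 to 12.6 for the resident gate and −1.11 to 2.23 for cycling lymphocytes, thus reversing sign, also at −0.972 for endothelial cells without RT replicate 2. Thinned to 500 UMIs the cycling lymphocyte difference was −0.221, against 0.559. The lymphocyte sum of CL replicate 1 held 596215 counts, the fewest of the sums compared.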

Other observations

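Cells past the natural killer gate (Ncr1, Klrb1c, Klre1) were 1.83% and 4.52% in RT and 0.910% and 2.05% in CL. The plasma cell list had 0 of 8 genes called in the sum over all cells. Of these 3 lay above and 3 below RT in both CL libraries (28.5% and 21.9% over all genes). The list summed to 253 and 294 CPM in RT and 156 and 256 in CL. In myeloid cells its member Sdc1 passed with the replicate block only (log2 fold change 1.71, edgeR adjusted p = 0.0278). The mast cell and eosinophil list summed to 20.5 and 36.8 CPM in RT and 18.5 and 22.0 in CL, and the plasmacytoid dendritic cell list to 247 and 209 in RT and 192 and 219 in CL.

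Among the remaining lists in myeloid cells, with 0 genes called in each, the monocyte list had 6 of 14 genes below RT in both CL libraries and 0 above (median log2 fold change −0.54, and −0.01 without CL replicate 1 and −1.52 without CL replicate 2), the type 1 dendritic list 8 of 12 below and 0 above (−0.49, and −0.20 without CL replicate 1 and −0.89 without CL replicate 2), and the migratory dendritic list 4 of 11 below and 0 above (−0.60, and −0.23 without CL replicate 1 and −1.06 without CL replicate 2). Without cells past the lipid-associated macrophage gate these 3 medians were −0.19, 0.00 and −0.14. Over all genes tested in myeloid cells 25.3% lay below RT in both CL libraries and 26.6% above. The chemokine receptor Ccr7 of migratory dendritic cells stood at 119 and 83.9 CPM in RT, 21.5 in CL replicate 1 and 84.0 in CL replicate 2. Glucocorticoid and metallothionein genes had 5 of 10 below (−0.57, and −0.13 without CL replicate 1 and −0.93 without CL replicate 2) and clock genes 4 of 12 below and 1 above (−0.27, and −0.01 without RT replicate 1 and −0.41 without RT replicate 2). Erythroid transcripts summed to 2234 and 5107 CPM in RT and 1571 and 10741 in CL in the same myeloid sums, on both sides of RT, and stromal transcripts to 138 and 160 in RT and 128 and 287 in CL.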
